A study of Mus musculus with 10 samples.

Results

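The genes described here are those of the unfolded protein response and of protein folding in the endoplasmic reticulum (ER), read in tumours of mice fed with or without arginine. They are a list of 41 gene symbols grouped by function, drawn up with earlier results of these data known, and all 41 were found by symbol among the 21849 genes of the count table. Of these, 39 had enough reads for the test of diet. Derl3, a channel component of ER-associated degradation, had 4 to 10 reads in each library and was not tested. Erlec1, a lectin of the same pathway, was listed at 0 in all 10 libraries, and 100% of its annotated exonic bases lie inside the body of Asb3 on the opposite strand.

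Total RNA was sequenced from 10 subcutaneous tumours of CT26, a mouse colon carcinoma line, grown in BALB/c mice. Feeding began at 5 weeks of age: 5 tumours came from mice on a diet made without arginine but with the calories of the control food, and 5 from mice on the normal diet. Mice had eaten their diet for 1 week when the tumour cells were placed under the skin, and tumours were taken on day 20. The tumours are whole tissue, so RNA of tumour cells and host cells is mixed, and fewer cells of a type and less RNA per cell cannot be told apart. The labels do not state that each library is 1 mouse, so p-values measure the spread between these samples.

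The ER folds proteins that are secreted or sit in membranes. When unfolded proteins build up there, membrane sensors signal to the nucleus: IRE1 (encoded by Ern1) splices the mRNA of Xbp1 into a form that codes for an active transcription factor, ATF6 is cut so that its cytosolic part becomes one, and PERK (Eif2ak3) slows translation while favouring that of ATF4. XBP1 and ATF6 raise genes for chaperones, disulfide enzymes, the translocon and ER-associated degradation, the route by which misfolded proteins are pulled back into the cytosol and destroyed. ATF4 is also raised by the amino acid sensor GCN2, so the PERK branch shares its targets with the response to lack of an amino acid. Counts per gene do not separate spliced from unspliced Xbp1, and say nothing of the cutting of ATF6.

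The ER stress response element (ERSE) is the best known DNA sequence of this response: CCAAT, which NF-Y binds, then 9 bases and CCACG, where ATF6 and XBP1 bind. It is shown here because some of the genes share it, which can be read without any measured value. The genes were listed for their function in the response to which this element belongs. A high share among them is therefore a description of the list and not a test. In windows from 250 bases before to 50 bases after the gene start (RefSeq, GRCm38.p6, the same coordinates as mm10), 35 of the 41 genes had an entry, and 9 of those 35 (25.7%) held an ERSE on either strand. Over all 27025 genes with an entry, 37 (0.137%) did. The 10 sites of these 9 genes lay 26 to 212 bases before the start, 6 with CCAAT first and 4 in reverse. Each is printed on the strand of its gene, 5′ to 3′, with the 19 bases of the element in capitals and 5 bases on each side; Hsp90b1 has both orientations.
Hspa5: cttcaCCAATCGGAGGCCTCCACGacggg
Hsp90b1 far site: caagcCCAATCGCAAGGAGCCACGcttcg
Hsp90b1 near site: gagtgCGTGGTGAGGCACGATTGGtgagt
Dnajc3: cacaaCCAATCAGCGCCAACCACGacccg
Creld2: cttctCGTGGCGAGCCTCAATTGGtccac
Pdia6: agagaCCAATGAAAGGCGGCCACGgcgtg
Calr: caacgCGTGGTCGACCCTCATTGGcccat
Canx: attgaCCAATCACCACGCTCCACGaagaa
Syvn1: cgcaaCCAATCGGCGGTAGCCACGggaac
Derl3: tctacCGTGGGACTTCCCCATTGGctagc
Hspa5 at chr2:34772020-34772048, Hsp90b1 at chr10:86705633-86705661 and chr10:86705528-86705556, Dnajc3 at chr14:118937822-118937850, Creld2 at chr15:88819515-88819543, Pdia6 at chr12:17266486-17266514, Calr at chr8:84847070-84847098, Canx at chr11:50325795-50325823, Syvn1 at chr19:6046527-6046555 and Derl3 at chr10:75893237-75893265 are the positions. The Hspa5 site falls in an annotated exon of Hspa5 in GENCODE M21, whose gene start lies further upstream, and the other sites fall between genes.

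A shorter element, ERSE-II (ATTGG, 1 base, CCACG), was in 2 of the 35 genes (5.71%) against 0.0444% of all genes with an entry. The site of Herpud1, whose human counterpart is a textbook case of this element, is shown with 5 bases on each side.
Herpud1 ERSE-II: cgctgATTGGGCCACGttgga
It lies at chr8:94386372-94386392, from 52 to 42 bases before the start and in an intron of Gm15890 on the other strand. That of Dnajb11 lies after the start, within its first bases. The core of the XBP1 element (UPRE), TGACGTG, was in Hspa5, Txndc5 and Txndc11, 3 of 35 genes (8.57%) against 2.22% of all. The amino acid response element TGATGNAA, bound by ATF4, was in Herpud1 and Txndc5, 2 of 35 (5.71%) against 4.51% of all. All were searched on both strands, and no site overlapped one of another element. A match of letters is a description of the window and not a site shown to be in use.

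On the deficient diet, 35 of the 39 tested genes were higher and 4 were lower by fitted log2 fold change, against 50.3% higher among all 12929 genes tested. The median of the 39 was 0.19 on the log2 scale, and that of all genes tested was 0.00. None of the 39 passed edgeR's quasi-likelihood test at an adjusted p of 0.05, where 7 genes in the table did (0.0541%), the lowest adjusted p being 0.219 for Selenos. At an unadjusted p under 0.05, 15 of the 39 were higher, against 3.54% of all genes tested, and 0 were lower, against 3.19%. These shares over all genes also apply to the counts by role and by ERSE given below. In 4 of the 39 (Xbp1, Selenos, Ero1l and Sel1l) every deficient-diet library lay above every normal-diet one, against 0.835% of all genes. Other tools called more genes over the whole table. With DESeq2, 4 of the 39 passed at an adjusted p of 0.05 (Xbp1, Selenos, Wfs1 and Sec61a1), as did 132 of the 13844 genes with an adjusted p (0.953%). With limma voom and sample weights 13 of the 39 passed, as did 373 of 12929 genes (2.88%).

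**Figure D1:**
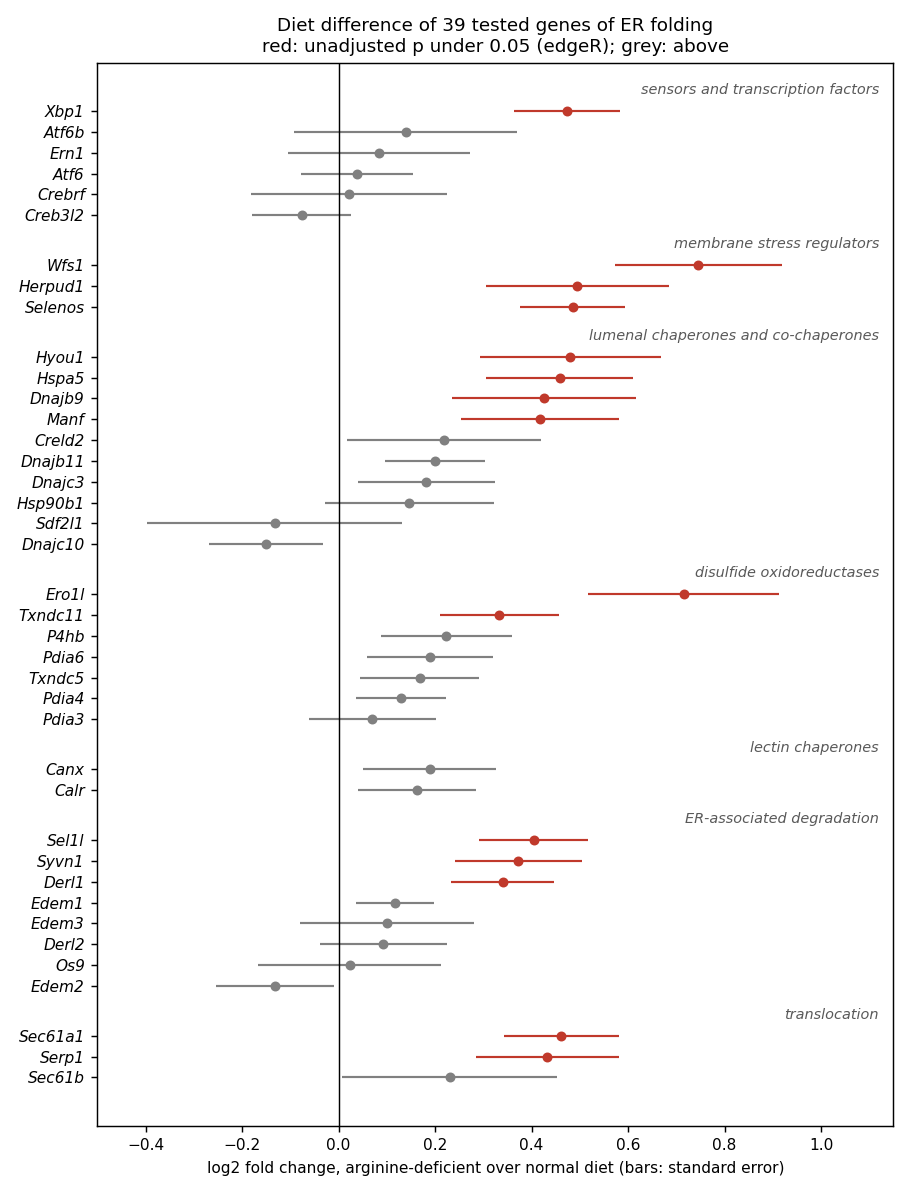
Log2 fold change (arginine-deficient over normal diet, edgeR) of the 39 tested genes by role, with bars of 1 standard error on each side and an unadjusted p under 0.05 in red. The genes of the membrane stress regulators all lie between 0.49 and 0.75, whereas the sensors other than Xbp1 lie between -0.08 and 0.14.

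Levels per kilobase of exon set the most abundant of these genes apart from the rest. Calr, a lectin chaperone, averaged 408.5 CPM (reads scaled to one common library size) per kilobase over the 10 libraries. Hspa5 followed with 346.7, P4hb with 338, Pdia3 with 214.4, Hsp90b1 with 202.6 and Pdia4 with 126 CPM per kilobase. At the lower end were Txndc11 (6.98), Wfs1 (7.13), Derl2 (7.49) and Crebrf (8.56 CPM per kilobase). Of the 6 most abundant genes, Hspa5 had a log2 fold change of 0.46 and the other 5 had 0.07 to 0.22. Wfs1 and Ero1l, the pair with the highest fold changes, averaged 7.13 and 93.7 CPM per kilobase.

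Xbp1 (chr11:5520659-5525893, plus strand), the transcription factor of the IRE1 branch, had 180.3, 184, 148, 160.1 and 186 CPM in deficient replicates 1 to 5 and 131, 109, 109, 131 and 138 CPM in normal replicates 1 to 5. The groups did not overlap, and deficient replicate 3 and normal replicate 5 came nearest to each other. The means were 172 ± 16.8 CPM in deficient-diet tumours (SD, n = 5) and 124 ± 13.4 CPM in normal-diet ones (SD, n = 5). The log2 fold change was 0.47 (SE 0.11), with an unadjusted p of 0.000958 and an adjusted p of 0.238 by edgeR.

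The other sensors and factors showed no such separation. Ern1, the IRE1 kinase and RNase that splices Xbp1, had 342, 217, 151, 224 and 209.5 CPM in deficient replicates 1 to 5 and 267, 190.5, 189, 221 and 212 CPM in normal replicates 1 to 5. Deficient replicate 1 was the highest and deficient replicate 3 the lowest of all 10 libraries, and the means were 229 ± 69.5 CPM in deficient-diet tumours (SD, n = 5) and 216 ± 31.7 CPM in normal-diet ones (SD, n = 5). Its log2 fold change was 0.08 (SE 0.19, adjusted p = 0.998 by edgeR), and -0.11 without deficient replicate 1. Atf6, the second sensor, had 269, 259.7, 192, 207 and 234 CPM in deficient replicates 1 to 5 and 225, 224, 238, 243 and 202 CPM in normal replicates 1 to 5. Here too the deficient libraries spanned the normal ones, with a log2 fold change of 0.04 (SE 0.12, adjusted p = 0.998), and of -0.02 and -0.01 without deficient replicate 1 or 2. Its paralog Atf6b had 0.14, Crebrf, which controls the turnover of a CREB3 factor, 0.02, and Creb3l2, a membrane-bound factor related to ATF6, -0.08. Of the 6 genes of this role, 5 were higher, 1 had an unadjusted p under 0.05, and the median log2 fold change was 0.06.

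All 3 membrane stress regulators were higher with an unadjusted p under 0.05, and their median log2 fold change was 0.49. Selenos (chr7:66079649-66089405, plus strand), a selenoprotein that joins the degradation channel to its cytosolic ATPase, had 81.6, 79.7, 68.5, 75.5 and 82.6 CPM in deficient replicates 1 to 5 and 63.4, 54.1, 46.6, 57.8 and 55.3 CPM in normal replicates 1 to 5. The lowest deficient-diet library lay above the highest normal-diet one, and the means lay further apart than the spread within either diet, at 77.6 ± 5.74 CPM in deficient-diet tumours (SD, n = 5) and 55.4 ± 6.09 CPM in normal-diet ones (SD, n = 5). By edgeR, the log2 fold change of Selenos was 0.49 (SE 0.11, unadjusted p = 0.000736, adjusted p = 0.219).

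Wfs1 (chr5:36966104-36989205, minus strand), the ER membrane protein wolframin, which restrains ATF6 signalling, had 37.7, 45.5, 23.7, 29.3 and 33.0 CPM in deficient replicates 1 to 5 and 19.2, 17.0, 20.0, 20.5 and 24.2 CPM in normal replicates 1 to 5. Deficient replicate 3 was below normal replicate 5, and the other 4 deficient libraries were above all normal ones. The means were 33.8 ± 8.28 CPM in deficient-diet tumours (SD, n = 5) and 20.2 ± 2.63 CPM in normal-diet ones (SD, n = 5). In the edgeR fit the difference was 0.75 on the log2 scale (SE 0.17, unadjusted p = 0.000981, adjusted p = 0.239), and this was the highest fold change of the 39 genes.

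Herpud1 (chr8:94386438-94395377, plus strand), a scaffold of the degradation complex that carries the ERSE-II shown above, had 166, 166, 80.3, 123 and 184 CPM in deficient replicates 1 to 5 and 109, 102, 106, 94.4 and 99.2 CPM in normal replicates 1 to 5. The normal-diet libraries were tight, while deficient replicate 3 was the lowest of all 10 and the other 4 deficient ones were the highest. Means were 144 ± 42.2 CPM in deficient-diet tumours (SD, n = 5) and 102 ± 5.85 CPM in normal-diet ones (SD, n = 5). This gave Herpud1 a difference of 0.49 on the log2 scale (SE 0.19, unadjusted p = 0.0223 and adjusted p = 0.625 by edgeR). Without the 3 libraries richest in muscle transcripts (deficient replicates 3 and 4, normal replicate 4) its log2 fold change was 0.73, which passed the adjusted threshold in that fit, the only one of the 39 to do so, where 18 of 12940 genes did (0.139%). Of its exonic bases, 12.9% lie inside the antisense gene Gm15890, and the sources used here do not say whether strand was used in counting.

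**Figure D2:**
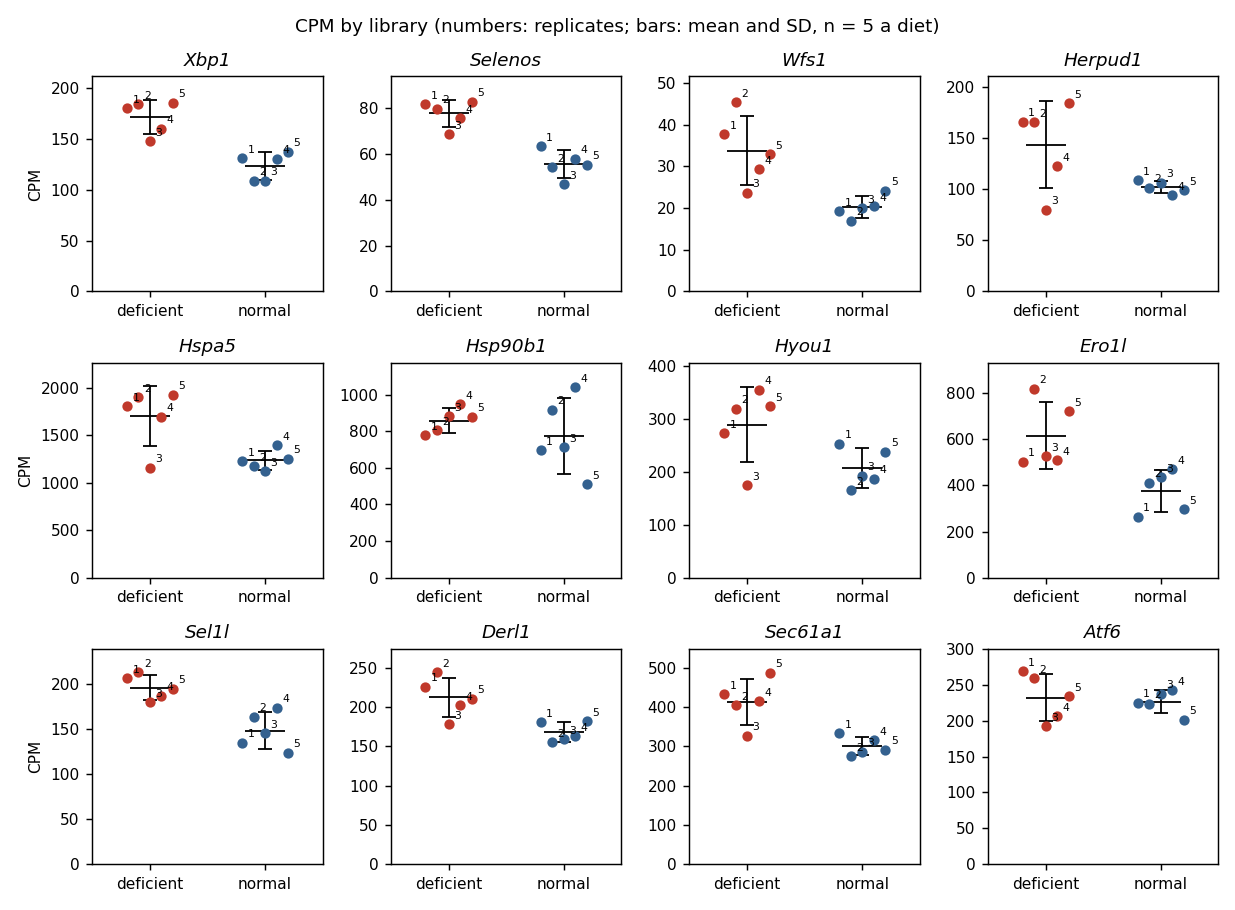
CPM of 12 genes in each library, by diet, with the mean and SD of 5 libraries as bars and the replicate number at the upper right of each point. Deficient replicate 3 is the lowest deficient-diet library for Xbp1, Selenos, Wfs1, Herpud1, Hspa5, Hyou1, Sel1l, Derl1, Sec61a1 and Atf6, but not for Hsp90b1 and Ero1l.

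Among the 10 lumenal chaperones and co-chaperones, 8 were higher and 2 lower, 4 had an unadjusted p under 0.05, and the median log2 fold change was 0.21. Hspa5 (chr2:34771970-34777547, plus strand), the Hsp70 chaperone BiP that also holds the sensors inactive, had 1808, 1900, 1157, 1693 and 1928 CPM in deficient replicates 1 to 5 and 1229, 1176, 1123, 1396 and 1253 CPM in normal replicates 1 to 5. Of the deficient libraries, 4 were above all normal ones, and replicate 3 was second lowest of all. The means were 1697 ± 316 CPM in deficient-diet tumours (SD, n = 5) and 1235 ± 103 CPM in normal-diet ones (SD, n = 5). The log2 fold change was 0.46 (SE 0.15), with an unadjusted p of 0.0105 and an adjusted p of 0.512 by edgeR.

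Hyou1, an Hsp110-type chaperone that works with BiP, had 273, 319, 175, 355 and 324 CPM in deficient replicates 1 to 5 and 253, 165, 192, 187 and 238 CPM in normal replicates 1 to 5. As with BiP, 4 deficient libraries exceeded all normal ones and replicate 3 did not. By edgeR, the log2 fold change of Hyou1 was 0.48 (SE 0.19, unadjusted p = 0.0243, adjusted p = 0.639). Manf, a secreted ER stress protein that binds BiP, had 140.0, 186, 133, 193 and 199 CPM in deficient replicates 1 to 5 and 144, 97.2, 116, 118 and 162 CPM in normal replicates 1 to 5. Its groups overlapped, with normal replicate 5 above deficient replicates 1 and 3. In the edgeR fit the difference was 0.42 on the log2 scale (SE 0.16, unadjusted p = 0.0249, adjusted p = 0.644), and 15.9% of its exonic bases lie in other genes' bodies. Dnajb9, a BiP co-chaperone that represses IRE1, had 46.1, 62.5, 73.6, 44.8 and 57.9 CPM in deficient replicates 1 to 5 and 40.5, 48.0, 36.1, 57.4 and 29.9 CPM in normal replicates 1 to 5. Its highest library was deficient replicate 3 and its lowest normal replicate 5, which is unlike the order for Hspa5 and Hyou1. This gave Dnajb9 a difference of 0.43 on the log2 scale (SE 0.19, unadjusted p = 0.0458 and adjusted p = 0.727 by edgeR).

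Hsp90b1, the Hsp90 of the ER (GRP94) and the carrier of 2 ERSE, had 778, 805, 881, 947 and 880.4 CPM in deficient replicates 1 to 5 and 695, 918, 712, 1041 and 510.0 CPM in normal replicates 1 to 5. Both the highest and the lowest library were on the normal diet, and the deficient libraries lay between them. Means were 858 ± 67.5 CPM in deficient-diet tumours (SD, n = 5) and 775 ± 207 CPM in normal-diet ones (SD, n = 5), and the log2 fold change was 0.15 (SE 0.17, adjusted p = 0.983 by edgeR). Of its exonic bases, 60.8% lie inside other genes, 1810014B01Rik on the opposite strand among them, so its level is uncertain. Sdf2l1, which keeps chaperone clients soluble together with Dnajb11, had 19.6, 20.0, 21.4, 37.4 and 25.4 CPM in deficient replicates 1 to 5 and 34.2, 18.9, 21.2, 18.9 and 42.7 CPM in normal replicates 1 to 5. Normal replicate 5 was the highest and deficient replicate 4 next, and the log2 fold change was -0.13 (SE 0.26, adjusted p = 0.998); it was 0.09 without normal replicate 5 and 0.19 with limma voom. Log2 fold changes of the others were 0.20 for Dnajb11, whose exonic bases lie to 38.1% inside another gene, 0.18 for Dnajc3, an inhibitor of PERK and BiP co-chaperone, 0.22 for Creld2, and -0.15 for Dnajc10, a disulfide reductase of degradation.

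All 7 disulfide oxidoreductases were higher by fitted log2 fold change, 2 of them with an unadjusted p under 0.05, and the median was 0.19. Ero1l (chr14:45283087-45318771, minus strand), the oxidase that recharges protein disulfide isomerases and is also a hypoxia-induced gene, had 503, 819.5, 527, 509 and 721 CPM in deficient replicates 1 to 5 and 264, 412, 435, 469 and 296 CPM in normal replicates 1 to 5. The groups did not overlap, and deficient replicates 2 and 5 stood highest. The log2 fold change was 0.72 (SE 0.20), with an unadjusted p of 0.00352 and an adjusted p of 0.368 by edgeR. Txndc11, a thioredoxin-domain protein that works with EDEM lectins, had 79.8, 60.6, 60.2, 70.8 and 72.2 CPM in deficient replicates 1 to 5 and 58.5, 53.7, 51.9, 63.0 and 45.4 CPM in normal replicates 1 to 5. Normal replicate 4 lay above deficient replicates 2 and 3. By edgeR, the log2 fold change of Txndc11 was 0.33 (SE 0.12, unadjusted p = 0.0187, adjusted p = 0.604).

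The disulfide isomerases themselves differed by less. P4hb, the most abundant of them per kilobase, had 0.22 on the log2 scale and means of 1042 ± 170.3 CPM in deficient-diet tumours (SD, n = 5) and 892 ± 66.5 CPM in normal-diet ones (SD, n = 5). Pdia6 had 0.19, Txndc5, with 23.2% of its exonic bases inside other genes, 0.17, Pdia4 0.13 and Pdia3 0.07. For P4hb and Txndc5 alike, 4 deficient-diet libraries lay above all normal-diet ones and replicate 3 lay below all of them. Both lectin chaperones, which hold glycoproteins during folding, were also higher: Canx had 0.19 and Calr 0.16, with means for Calr of 1243 ± 136 CPM in deficient-diet tumours (SD, n = 5) and 1110 ± 102 CPM in normal-diet ones (SD, n = 5). The unadjusted p was 0.196 for Canx and 0.209 for Calr by edgeR.

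Of the 8 tested genes of ER-associated degradation, 7 were higher and 3 had an unadjusted p under 0.05, and the median log2 fold change was 0.11. Those 3 encode parts of the membrane complex around the ubiquitin ligase. Sel1l (chr12:91806043-91849157, minus strand), the adaptor that stabilises the ligase, had 206, 213, 179, 187 and 194 CPM in deficient replicates 1 to 5 and 134, 163, 145, 174 and 123 CPM in normal replicates 1 to 5. There was no overlap, normal replicate 4 coming nearest to the deficient libraries. The means were 196 ± 13.7 CPM in deficient-diet tumours (SD, n = 5) and 148 ± 20.6 CPM in normal-diet ones (SD, n = 5). In the edgeR fit the difference was 0.40 on the log2 scale (SE 0.11, unadjusted p = 0.00362, adjusted p = 0.368). Syvn1, the ligase HRD1 itself and a carrier of an ERSE, had 112, 97.1, 75.6, 88.8 and 95.3 CPM in deficient replicates 1 to 5 and 86.9, 61.7, 63.8, 74.8 and 74.7 CPM in normal replicates 1 to 5. Only deficient replicate 3 lay within the normal range. This gave Syvn1 a difference of 0.37 on the log2 scale (SE 0.13, unadjusted p = 0.0150 and adjusted p = 0.571 by edgeR). Derl1, a derlin of the retrotranslocation channel, had 226, 245, 178, 202 and 211 CPM in deficient replicates 1 to 5 and 181, 155, 159, 163 and 182 CPM in normal replicates 1 to 5. Deficient replicate 3 again lay within the range of the normal libraries. The log2 fold change was 0.34 (SE 0.11), with an unadjusted p of 0.00792 and an adjusted p of 0.465 by edgeR.

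The other genes of this role, mostly lectins and mannosidase-like proteins that pick out glycoproteins for degradation, were nearer to 0. Edem1 had a log2 fold change of 0.12, with 4 deficient libraries above all normal ones, Edem3 had 0.10, Derl2 0.09 and Os9 0.02, while Edem2 was lower at -0.13. Their unadjusted p ranged from 0.179 for Edem1 to 0.906 for Os9 by edgeR.

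The 3 genes of the translocon, through which new proteins enter the ER, were all higher, and their median was 0.43 on the log2 scale. Sec61a1 (chr6:88503579-88518905, minus strand), the pore subunit, had 434, 406, 327, 415 and 488 CPM in deficient replicates 1 to 5 and 334, 275, 286, 316 and 292 CPM in normal replicates 1 to 5. Of its exonic bases, 9.997% lie inside Gm44170 on the opposite strand. Deficient replicate 3 lay just below normal replicate 1, and the other 4 lay above all normal libraries. Means were 414 ± 58.2 CPM in deficient-diet tumours (SD, n = 5) and 301 ± 23.8 CPM in normal-diet ones (SD, n = 5). By edgeR, the log2 fold change of Sec61a1 was 0.46 (SE 0.12, unadjusted p = 0.00216, adjusted p = 0.309). Serp1, a small protein bound to the translocon that protects membrane proteins under stress, had 289.9, 358, 469.9, 361 and 389 CPM in deficient replicates 1 to 5 and 294, 300.2, 223, 327 and 239.8 CPM in normal replicates 1 to 5. Here deficient replicate 3 was the highest of all libraries and replicate 1 the lowest of its diet, within the normal range. In the edgeR fit the difference was 0.43 on the log2 scale (SE 0.15, unadjusted p = 0.0129, adjusted p = 0.548). For Sec61b, the smallest of the 3 by read count, the difference was 0.23 on the log2 scale (SE 0.22), and normal replicate 5 was its highest library at 43.7 CPM.

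Genes with and without an ERSE were then set side by side, a difference that was not tested. All 8 tested genes that held one were higher, 2 of them with an unadjusted p under 0.05 (Hspa5 and Syvn1), with a median log2 fold change of 0.19. Among the 26 tested genes with an entry and no ERSE, 22 were higher, 9 had an unadjusted p under 0.05, and the median was 0.15. Atf6, Hyou1, Manf, Derl1 and Sec61a1 were tested but had no entry, so they are in neither set. All of them but Atf6 had an unadjusted p under 0.05 by edgeR. Wfs1, Xbp1, Selenos, Ero1l and Sel1l are among those without it in this window, which covers only the 300 bases around the start.

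The other genes of the pathway were read from lists by function. Of 108 tested, 82 were higher and 26 lower, against 50.3% higher among all genes tested. At an unadjusted p under 0.05 by edgeR, 16 were higher, against 3.54% of all genes tested, and 1 was lower, against 3.19%. None passed the adjusted threshold, and the median log2 fold change was 0.13. In 3 of the 108 (Srpr, Spcs2 and Alg2) every deficient-diet library lay above every normal-diet one, against 0.835% of all genes. The same shares over all genes hold for the lists that follow. All 8 genes of the PERK branch were higher, with a median of 0.20. Ppp1r15a (GADD34), which reverses the block on translation, had 0.87 (SE 0.39) and means of 125 ± 62.8 CPM in deficient-diet tumours (SD, n = 5) and 68.5 ± 25.3 CPM in normal-diet ones (SD, n = 5). Trib3, an ATF4 target, had 0.71 (SE 0.32), and Atf4 itself 0.44 (SE 0.20) with means of 482 ± 124 CPM in deficient-diet tumours (SD, n = 5) and 355 ± 72.8 CPM in normal-diet ones (SD, n = 5). These 3 had unadjusted p values of 0.0450, 0.0485 and 0.0450 by edgeR. Ddit3 (CHOP), the factor of the same branch linked to cell death, had 0.03 (SE 0.42), and its libraries ranged from 20.1 to 127 CPM.

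Lists for the steps before and after folding also had medians above 0. All 11 genes of N-glycan assembly and transfer were higher, with a median of 0.22, and 3 had an unadjusted p under 0.05: Alg2 (0.38), Stt3a (0.36) and Dpagt1 (0.25). The lowest of the 11, Alg5, was almost level between diets at 0.002. All 14 genes of transport between the ER and the Golgi were higher, with a median of 0.20; Sec23b (0.33), Kdelr2 (0.33), Mcfd2 (0.32) and Sec24d (0.30) had an unadjusted p under 0.05. Of 20 other genes of translocation and signal cleavage, 16 were higher, with a median of 0.13. Srpr, which docks the signal recognition particle at the ER, had means of 203 ± 19.4 CPM in deficient-diet tumours (SD, n = 5) and 153 ± 9.61 CPM in normal-diet ones (SD, n = 5), without overlap between diets. Its fold change by edgeR was 0.41 (log2, SE 0.10, adjusted p = 0.256), and Spcs2, Srprb and Ssr2 had 0.33, 0.32 and 0.32.

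Other chaperones and oxidoreductases, which were not on the list of 41, were split in direction. Of 25 tested, 11 were higher and 14 lower, with a median of -0.01. Ppib, a prolyl isomerase of the ER, had 0.22 and the thioredoxin-domain gene Txndc16 -0.38, both with an unadjusted p under 0.05 (0.0450 and 0.0139). Of 18 other genes of ER-associated degradation, 14 were higher, with a median of 0.12, and only the ubiquitin ligase gene Rnf185 had an unadjusted p under 0.05 (log2 fold change 0.29). Of 12 further regulators of the IRE1 and ATF6 branches, 8 were higher, none had an unadjusted p under 0.05, and the median was 0.08. The difference between these lists and the 41 genes was not tested.

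**Figure D3:**
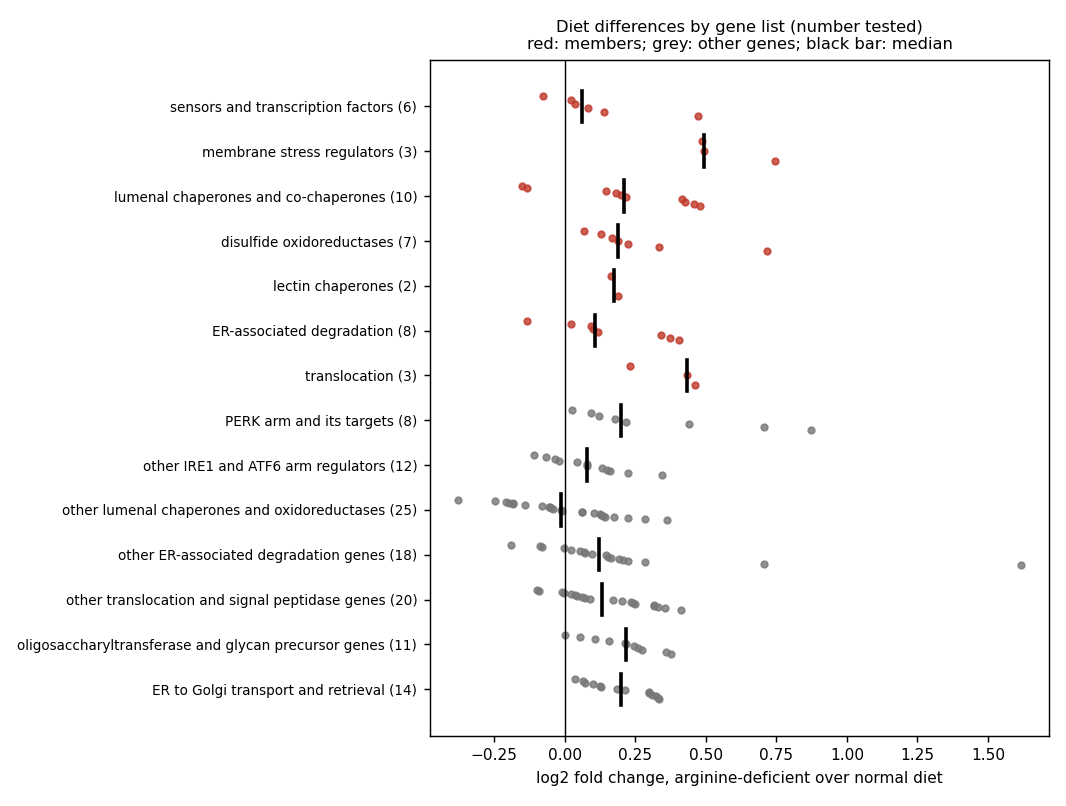
Log2 fold change (arginine-deficient over normal diet, edgeR) of each tested gene by list, with the 7 roles of the 39 genes in red, other pathway lists in grey and a black bar at each median. The genes of the PERK branch, N-glycan assembly and ER to Golgi transport all lie above 0, while the other chaperones and oxidoreductases lie on both sides with a median of -0.01.

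Library by library, the median level of the 39 genes was above the normal-diet mean in all 5 deficient tumours, least so in replicate 3. Relative to the normal-diet mean, their median log2 level was 0.16, 0.20, 0.09, 0.32 and 0.33 in deficient replicates 1 to 5. It was 0.04, -0.10, -0.07, 0.08 and 0.00 in normal replicates 1 to 5, so deficient replicate 3 came close to normal replicate 4. The highest library was on the deficient diet for 30 of the 39 genes, most often replicate 5 (10 genes). The lowest was on the normal diet for 29, most often replicate 2 (13 genes) or 5 (10 genes), and deficient replicate 3 was the lowest for 8.

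The place of some libraries in this order differed with the GC content of the transcripts. Among the 20 genes with 41.9% to 50.5% GC, the medians were 0.08, 0.19, 0.27, 0.30 and 0.28 in deficient replicates 1 to 5 and -0.02, 0.14, -0.07, 0.19 and -0.26 in normal replicates 1 to 5. Among the 19 genes with 50.8% to 61.6% GC, they were 0.22, 0.27, -0.20, 0.33 and 0.41 on the deficient and 0.11, -0.17, -0.07, -0.01 and 0.16 on the normal diet. Deficient replicate 3 thus changed from among the higher libraries to the lowest. Over all genes, the slope of log2 CPM on GC content was -0.65 per 10 percentage points in that library, -0.47 and -0.38 in normal replicates 2 and 4, and 0.22 in normal replicate 5. The median log2 fold change between diets was similar in both sets, 0.19 for the lower and 0.22 for the higher GC genes.

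**Figure D4:**
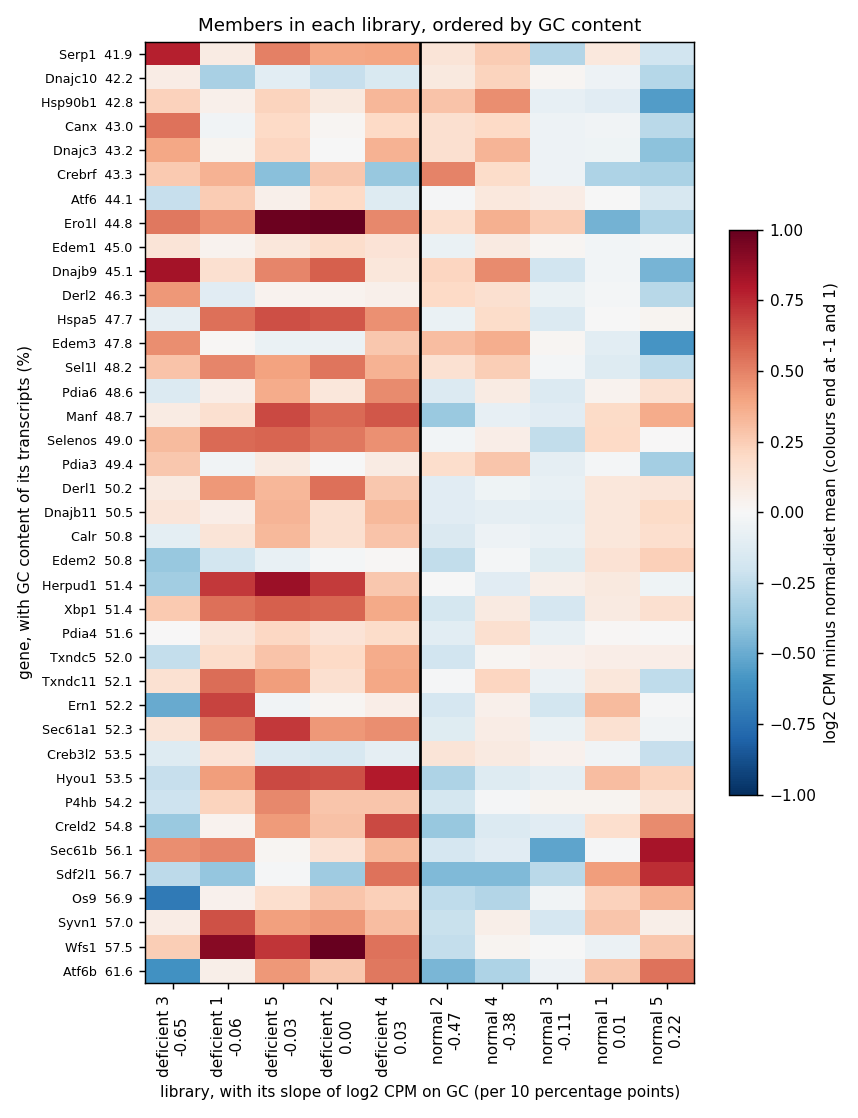
Log2 CPM minus the normal-diet mean (colour, ending at -1 and 1) for the 39 tested genes, ordered from low GC content at the top to high at the bottom, in 10 libraries ordered within each diet by the slope of all genes on GC. Deficient replicate 3 turns from red at the top to blue at the bottom, and normal replicate 5 the other way round.

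With each library's GC and length slopes as covariates in edgeR, 35 of the 39 were again higher and the median log2 fold change was 0.20. In that fit 19 had an unadjusted p under 0.05, against 16.0% of all genes in either direction, and 3 passed the adjusted threshold, as did 68 of 12929 genes (0.526%): Xbp1 (log2 fold change 0.47, adjusted p = 0.0362), Wfs1 (0.73, adjusted p = 0.0467) and Selenos (0.48, adjusted p = 0.0467). Without deficient replicate 3, 33 of 39 were higher and the median was 0.26.

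Transcripts of other cells moved with some libraries. Skeletal muscle markers (8 of 9 detected, Acta1 listed at 0) summed to 5734 CPM in deficient replicate 3, 1595 in deficient replicate 4, 568 in normal replicate 4 and at most 73.2 CPM in the other 7 libraries. Deficient replicate 3 also had the highest share of mitochondrial counts, 9.97%, against 1.67% to 4.44% elsewhere. Without the 3 muscle-rich libraries the median log2 fold change of the 39 was 0.21 and 35 were higher. Haemoglobin transcripts (4 of 4 markers) summed to 91.1 ± 20.1 CPM with the deficient food and to 312 ± 239 CPM with the normal one (SD, n = 5 each; exact two-sided permutation p = 0.0159, adjusted over 10 measures 0.159), and their part in the result was not tested.

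Plasma and B cells, which hold much ER, were looked for with 11 markers. Of these, 7 were detected, Mzb1 and Ms4a1 were listed at 0, and their sum was 56.0 to 83.8 CPM in deficient-diet and 57.1 to 111 CPM in normal-diet tumours. Macrophage markers (7 of 8 detected, Itgam listed at 0) ranged from 2005 to 2615 and from 1963 to 2753 CPM, and fibroblast markers (7 of 7) from 2350 to 4184 and from 2857 to 3728 CPM. Epithelial markers (6 of 6 detected) summed to only 7.95 to 19.4 CPM in deficient-diet and 11.1 to 24.7 CPM in normal-diet tumours, although CT26 is a carcinoma line. Of the 4 epithelial markers tested, 2 were higher and 2 lower on the deficient diet. Cdh1 had a log2 fold change of 0.74 (unadjusted p = 0.0294 by edgeR). Over all genes tested, 3.54% were higher with an unadjusted p under 0.05. Krt18, the most abundant of these markers, had -0.47 (unadjusted p = 0.172). Endothelial markers (5 of 5) ranged from 153 to 195 and from 167 to 218 CPM. All 5 had a negative log2 fold change, 2 of them with an unadjusted p under 0.05 (Robo4, without overlap between diets, at 0.0387 and Cldn5 at 0.0479, by edgeR). Over all genes tested, 3.19% were lower at that level. The part of these cells in the result was not tested. Library totals were 12013178 to 31530123 counts.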

How the data were processed

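The deposited table holds the authors' raw counts per gene for 10 tumours, which had not been normalized. FastQC for read quality, STAR for alignment, featureCounts for counting and the build mm10 are named in the submitters' processing notes; the sources used here give no versions or settings, nor the use of strand. Titles were read as diets from the design text. GENCODE M21 gave symbols, positions, exon lengths and GC content. Of 21849 genes, 4263 were at 0 in every library. Every pair of libraries differed by more than sampling noise (lowest chi-square per degree of freedom 16.7), so all 10 counted as separate libraries. This cannot tell whether any of them came from the same mouse.

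Counts were tested in edgeR 4.0.16 (R 4.3.3) with TMM scaling, its filter on low counts (minimum 10, total 15), which left 12929 genes, and a quasi-likelihood F test of diet, with Benjamini-Hochberg adjustment over all genes tested and a threshold of 0.05. CPM (counts scaled to one library size) used the TMM factors for genes and the library total alone for marker sums. The biological coefficient of variation was 26.5%. Alternatives were DESeq2 1.42.0, limma 3.58.1 voom with sample weights, other scaling and filters, GC and length slopes as covariates, a replicate block, and leaving out libraries. The edgeR steps were tested in 3 runs on simulated data, with 200 genes changed in each. They recovered 29 of 201 genes changed 1.5-fold (14.4%), 139 of 201 changed 2-fold (69%) and 196 of 198 changed 4-fold (99%). Differences near 1.5-fold were thus mostly missed in the simulation. Over the 3 runs, 24 calls fell on genes that had not been changed. In the measured data only 7 genes passed, so the shares recovered in the simulation may not hold there. Values per library are given for genes with an unadjusted p under 0.05 and for Xbp1, Ern1, Atf6, Hspa5, Hsp90b1, Herpud1, Dnajb9 and Sdf2l1; other lists name up to 4 genes of smallest p, and the remaining PERK branch gene Ddit3 was named after its values were seen. The 41 genes and the other lists were chosen with earlier results of these data known. Protein sequences were not analysed here. Promoter windows came from RefSeq (GRCm38.p6).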

Additional observations from a re-analysis of the deposited data

How the results depend on the processing

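The count of 35 of 39 genes higher was 35 under every alternative that kept all libraries and without the 3 libraries richest in muscle, and 32 to 35 when 1 library was left out. The number of genes called over the table was 132 with DESeq2, 373 with limma voom and sample weights, 1 with the replicate block, 18 without the 3 libraries richest in muscle, 68 with GC and length slopes as covariates, and 0 to 16 leaving out 1 library at a time, against 7. Called among the 39 were 4 with DESeq2, 13 with voom, 1 without the muscle-rich libraries, 3 with the covariates, and 0 with the replicate block or any 1 library left out. Those with an unadjusted p under 0.05, a count added after seeing the data, were 25 with voom (against 20.0% of all genes), 14 with the replicate block (4.12%), 19 with the covariates (16.0%) and 11 to 17 leaving out 1 library (4.37% to 10.6%), against 15 (6.74%). The median log2 fold change was 0.33 with voom, where that of all genes was 0.00, and 0.14 to 0.26 leaving out 1 library. Counted only before the start, ERSE-II was in 1 gene.

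Of 342 refits of the 19 genes given by library, 337 kept the direction and 21 passed the adjusted threshold. The 5 reversed were Ern1 without deficient replicate 1 (-0.11), Atf6 without deficient replicate 1 (-0.025) or 2 (-0.01), and Sdf2l1 with voom (0.19) or without normal replicate 5 (0.085). The ranges leaving out 1 library were -0.11 to 0.21 for Ern1, -0.025 to 0.10 for Atf6 and -0.33 to 0.085 for Sdf2l1. The cause was not tested. After each diet's mean was subtracted from log2 CPM over all genes, same-numbered libraries correlated by 0.13, -0.35, -0.01, 0.13 and 0.18. No same-numbered libraries were each other's best match. These values show no pairing by number, but they cannot exclude a weak one.

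An adjusted p above the threshold does not show equal levels on both diets. Derl3, at 4 to 10 reads, was left out by the filter on low counts, and no level can be given for Erlec1. Levels of genes that overlap others (Hsp90b1, Dnajb11, Txndc5, Manf, Herpud1 and Sec61a1) are uncertain.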
